A study of Mus musculus with 12 samples.

Results

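Neutrophils are drawn into inflamed skin by chemokines of the CXC family that bear a glutamate-leucine-arginine motif, among them the products of Cxcl1, Cxcl2, Cxcl3 and Cxcl5, which act on the receptor Cxcr2 on the neutrophil surface. Granulocyte colony-stimulating factor, the product of Csf3, acts through its receptor Csf3r to raise neutrophil output and survival. Trem1 is an activating receptor of neutrophils and monocytes that amplifies inflammatory signals, and Fpr1 and Fpr2 are formyl peptide receptors, which sense bacterial and mitochondrial peptides and guide phagocytes at short range. In skin treated with imiquimod, an activator of Toll-like receptor 7 used to provoke psoriasis-like inflammation in mice, neutrophils are part of the infiltrate.

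These 10 genes were taken by symbol from expression tables of 55416 Ensembl gene identifiers, and all 10 were among the 17130 genes that passed the filter on low counts. Their messenger RNA was measured in ear skin of C57BL/6 mice aged 8 to 12 weeks, on day 6, in 12 libraries of 4 groups of 3. IMQ_GW3965 combined imiquimod with GW3965 at 20 mg/kg, which activates the liver X receptors (LXR), and IMQ_Troglitazone combined it with troglitazone at 150 mg/kg, which activates the receptor PPARγ. Both compounds were injected intraperitoneally each day from day 3, so their doses differed. IMQ_Veh combined imiquimod with DMSO, the solvent, and UTX_Veh had a label that names the vehicle and no imiquimod and does not spell out UTX. Imiquimod was applied to the ears daily as 20.8 mg of Aldara cream at 5%, and no group had the cream base alone, so the effects of imiquimod and of the base cannot be told apart. All groups were of the C57BL/6 strain and carried no other named allele. Whether the 3 libraries in each group represent different animals is not said in the labels, so a p-value here rests on the scatter among libraries, which may be partly technical.

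Libraries held 18242074 to 25641602 expected counts. The unnamed feature ENSMUSG00000119584 took 11.6% of the counts of IMQ_GW3965 replicate 3. A list of 8 skeletal muscle genes, which mark muscle in the ear, summed to 7190, 5490 and 4990 CPM (counts scaled to a common library size) in IMQ_GW3965, 4400, 3320 and 5050 CPM in IMQ_Troglitazone, 1070, 935 and 4340 CPM in IMQ_Veh, against 9280, 10800 and 10400 CPM in UTX_Veh. All 8 were called lower in IMQ_Veh than in UTX_Veh, as were 28.9% of all genes, and the part of muscle RNA in the results below was not tested. Counts of the 10 genes were whole numbers in all 12 libraries, so no read of theirs was divided among several genes by RSEM, the program that estimated the counts. Values are given below as CPM after normalisation by trimmed mean of M values (TMM), in the order of replicates 1, 2 and 3. Since the tissue is bulk skin, fewer cells of a type and less RNA per cell cannot be told apart in any of these values.

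Cxcl1, Cxcl2, Cxcl3 and Cxcl5 lie on the forward strand of chromosome 5 (GRCm38), within 146579 bases. Cxcl5 (ENSMUSG00000029371) is at chr5:90759360-90761624, Cxcl3 (ENSMUSG00000029379) at chr5:90786103-90789600, Cxcl1 (ENSMUSG00000029380) at chr5:90891241-90893115 and Cxcl2 (ENSMUSG00000058427) at chr5:90903871-90905938. The RefSeq promoter table (GRCm38.p6, 250 bases before to 50 after a gene's start) held windows for 8 of the 10 genes. The kappaB sequence, GGG and TTTCC parted by any 2 bases, is a form of the site bound by NF-kappaB factors. It was searched on both strands and occurred in 1.63% of the 32851 windows of the table. It occurred in the windows of Cxcl1, Cxcl2 and Cxcl3 and in no window of the other 5 genes that had one. The stretches from 150 to 30 bases before the start are shown because these 3 genes, all higher in IMQ_Veh than in UTX_Veh, share a match there. Positions count from the RefSeq start, which lies 4 bases downstream of the GENCODE start given above for Cxcl1, 28 bases downstream for Cxcl2 and 2 bases upstream for Cxcl3. The stretches read 5′ to 3′ on the forward strand, at chr5:90891095-90891215, chr5:90903749-90903869 and chr5:90785951-90786071 for Cxcl1, Cxcl2 and Cxcl3 in turn, and capitals mark the matches:
Cxcl1: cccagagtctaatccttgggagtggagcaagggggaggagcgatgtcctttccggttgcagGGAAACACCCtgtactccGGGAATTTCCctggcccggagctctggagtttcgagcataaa
Cxcl2: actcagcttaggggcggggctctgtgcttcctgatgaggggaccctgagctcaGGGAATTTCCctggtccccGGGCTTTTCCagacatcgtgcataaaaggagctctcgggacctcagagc
Cxcl3: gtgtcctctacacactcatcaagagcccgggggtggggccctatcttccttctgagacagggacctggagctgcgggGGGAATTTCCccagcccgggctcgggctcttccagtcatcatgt

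Cxcl1 had a match at positions -89 to -80 on the reverse strand and another at -71 to -62 on the forward strand, counted back from the RefSeq start. Cxcl2 had forward matches at -97 to -88 and at -78 to -69, and Cxcl3 had 1, at -73 to -64. The matches do not overlap each other. The identical run GGGAATTTCC was present in all 3 stretches, and over the 50 bases centred on it Cxcl1 and Cxcl2 shared 29 bases, Cxcl1 and Cxcl3 shared 25, and Cxcl2 and Cxcl3 shared 21. The C/EBP sequence TTGCNNAA, present in 10.8% of all windows, and the AP-1 sequence TGANTCA, present in 7.81%, occurred in none of the 8 windows. Direct repeats of AGGTCA parted by 4 bases, the type bound by LXR with its partner RXR (0.0152% of windows), or by 1 base, the type bound by PPARγ with RXR (0.0396%), also occurred in none of them. The TATA sequence TATAAA, present in 13.6% of windows, occurred in those of Cxcl3 at -30 to -25, Fpr1 at -227 to -222 and Fpr2 at -130 to -125. All of these sequences were searched on both strands, and a match or its absence describes the letters of the window and not the binding of a factor.

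Imiquimod with vehicle raised all 10 genes over UTX_Veh. Of all genes tested, 33.0% were called higher in that comparison by edgeR's quasi-likelihood test at an adjusted p under 0.05. The median log2 fold change of the 10 genes was 7.16, beside 0.008 over all genes. With either drug, 5 of the 10 genes fell relative to IMQ_Veh and none rose. In IMQ_GW3965 they were Cxcl2, Cxcl3, Cxcl5, Csf3r and Trem1, where 2.88% of all genes were called lower. In IMQ_Troglitazone the genes called were these 5 as well, where 4.65% of all genes were called lower. Both comparisons share the IMQ_Veh libraries, so they are not independent of each other. The median log2 fold change was -2.09 in IMQ_GW3965 and -2.08 in IMQ_Troglitazone, beside -0.01 and -0.02 over all genes. In each comparison 8 of the 10 genes had all 3 drug libraries below all 3 IMQ_Veh libraries, which 12.0% of all genes had for GW3965 and 14.0% for troglitazone.

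**Figure D1:**
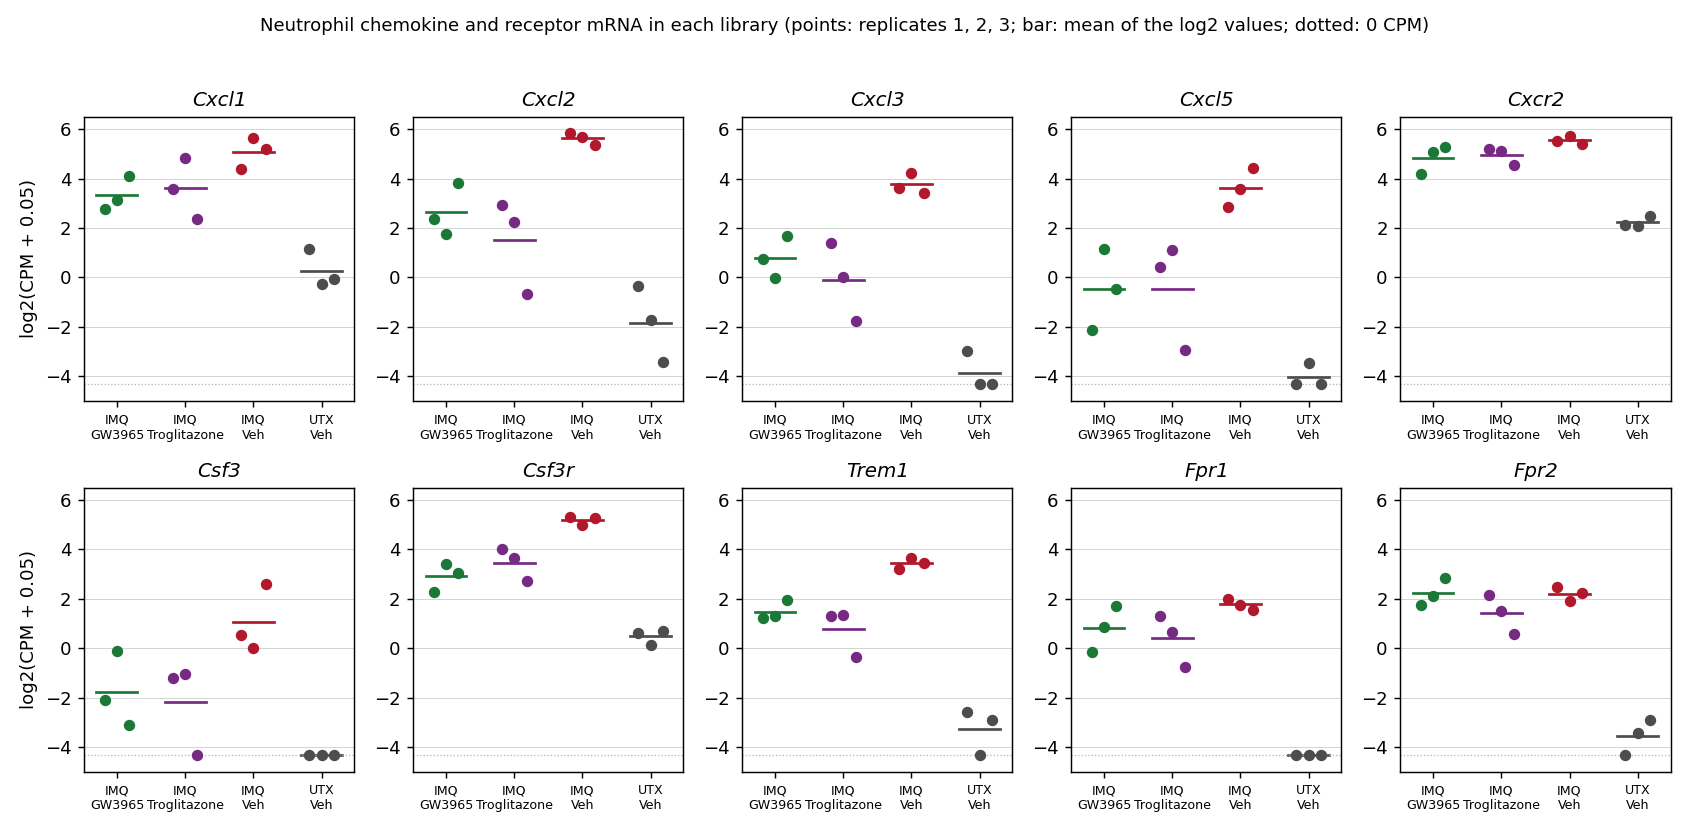
Level of each of the 10 genes in each library, as log2 of CPM plus a pseudocount of 0.05, by group, with 1 point per library, a bar at the mean of the log2 values and a dotted line at 0 CPM. The IMQ_Veh points of all 10 genes lie above the UTX_Veh points. The points of both drugs lie below the IMQ_Veh points for Cxcl2, Cxcl3, Cxcl5, Cxcr2, Csf3, Csf3r and Trem1. Those of Cxcl1 do so with GW3965 only, and those of Fpr1 with troglitazone only.

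Cxcl2 had the highest mean TPM of the 10 genes in IMQ_Veh skin, in a range that overlapped that of Cxcl1. It is a product of macrophages, neutrophils and other cells under inflammatory stimuli. It had 5.11, 3.33 and 14.3 CPM in IMQ_GW3965, 7.62, 4.70 and 0.575 CPM in IMQ_Troglitazone, 57.5, 51.4 and 40.7 CPM in IMQ_Veh, against 0.747, 0.251 and 0.0427 CPM in UTX_Veh. Neither drug group overlapped IMQ_Veh, and 1 troglitazone library lay within the range of UTX_Veh. Cxcl2 was higher in IMQ_Veh than in UTX_Veh by 7.11 ± 0.93 on the log2 scale (SE, adjusted p = 6.17e-05), and by 8.34 without UTX_Veh replicate 1. It was at 15.2% of the IMQ_Veh mean in IMQ_GW3965 (log2 fold change -2.74 ± 0.68, adjusted p = 0.0375) and at 8.62% in IMQ_Troglitazone (-3.54 ± 0.71, adjusted p = 0.0159). The call for GW3965 was lost without IMQ_Veh replicate 1 (adjusted p = 0.109) or 2 (0.0584), IMQ_GW3965 replicate 1 (0.155) or 2 (0.106), or UTX_Veh replicate 1 (0.0525) or 2 (0.057). It was also lost with only the 2 groups fitted (0.0648), with the lane field as a covariate (0.0542) and with the lane field and replicate block together (0.0648). Without IMQ_GW3965 replicate 3 the log2 fold change was -3.55. The call for troglitazone was lost without IMQ_Veh replicate 1 (adjusted p = 0.0602) and with only the 2 groups fitted (0.1). The troglitazone log2 fold change was -4.27 without IMQ_Troglitazone replicate 1.

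Cxcl3, a near relative of Cxcl2 that also acts on Cxcr2, had the same order of groups at a lower level. It had 1.63, 0.936 and 3.18 CPM in IMQ_GW3965, 2.58, 0.970 and 0.246 CPM in IMQ_Troglitazone, 12.3, 18.8 and 10.8 CPM in IMQ_Veh, against 0.0786, 0 and 0 CPM in UTX_Veh. The 4 groups did not overlap except for those of the drugs. The 2 reads of UTX_Veh gave an IMQ_Veh to UTX_Veh ratio of 429 with a 95% counting interval of 118 to 3550, and a bound of at least 187-fold without UTX_Veh replicate 1, which held both reads. Cxcl3 fell in IMQ_GW3965 (log2 fold change -2.90 ± 0.60, adjusted p = 0.0225) and in IMQ_Troglitazone (-3.46 ± 0.62, adjusted p = 0.0126). The GW3965 call was lost without IMQ_Veh replicate 1 (adjusted p = 0.0612) or without IMQ_GW3965 replicate 1 (0.107) or 2 (0.0685). The troglitazone call was lost with only the 2 groups fitted (adjusted p = 0.0975). Without IMQ_Troglitazone replicate 1 the troglitazone log2 fold change was -4.55.

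Cxcl5, which epithelial cells such as keratinocytes can produce, was close to absent from UTX_Veh. It had 0.181, 2.18 and 0.676 CPM in IMQ_GW3965, 1.31, 2.13 and 0.0821 CPM in IMQ_Troglitazone, 7.16, 11.9 and 21.5 CPM in IMQ_Veh, against 0, 0.0418 and 0 CPM in UTX_Veh. The drug groups lay below IMQ_Veh and spread widely among themselves. The single UTX_Veh read gave an IMQ_Veh to UTX_Veh ratio of 795 with a counting interval of 142 to 31400. That ratio was 520 without UTX_Veh replicate 1, and without replicate 2, which held the read, the bound was at least 177-fold. Cxcl5 fell in IMQ_GW3965 (log2 fold change -3.73 ± 0.82, adjusted p = 0.0254) and in IMQ_Troglitazone (-3.54 ± 0.79, adjusted p = 0.0233), to 7.50% and 8.71% of the IMQ_Veh mean. The GW3965 call was lost without IMQ_Veh replicate 1 (adjusted p = 0.0542) or without IMQ_GW3965 replicate 1 (0.107) or 3 (0.0728), and the log2 fold change was -5.08 without IMQ_GW3965 replicate 2. The troglitazone call was lost without IMQ_Veh replicate 1 (adjusted p = 0.053) or without IMQ_Troglitazone replicate 1 (0.0657) or 3 (0.0658), and the log2 fold change was -4.27 without IMQ_Troglitazone replicate 2. Both calls were lost with only the 2 groups fitted (adjusted p = 0.0795 with GW3965 and 0.107 with troglitazone).

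Cxcl1, the chemokine of the 4 with the highest level in UTX_Veh skin, was the one that neither drug changed by the test. It had 6.87, 8.63 and 17.0 CPM in IMQ_GW3965, 12.0, 28.6 and 5.17 CPM in IMQ_Troglitazone, 21.2, 49.8 and 36.7 CPM in IMQ_Veh, against 2.20, 0.794 and 0.897 CPM in UTX_Veh. All 3 IMQ_GW3965 libraries lay below IMQ_Veh, whereas IMQ_Troglitazone replicate 2 lay within the IMQ_Veh range. Cxcl1 was higher in IMQ_Veh than in UTX_Veh by 4.77 ± 0.68 on the log2 scale (adjusted p = 0.00011), and by 5.40 without UTX_Veh replicate 1. The log2 fold change was -1.75 ± 0.57 for GW3965 (adjusted p = 0.0806) and -1.24 ± 0.55 for troglitazone (adjusted p = 0.165). Without IMQ_Troglitazone replicate 3 the GW3965 value passed the test (-1.75, adjusted p = 0.045), as it did with no filter on low counts (-1.74, adjusted p = 0.0321) and with IMQ_Veh and IMQ_GW3965 reduced to replicates 1 and 2 (-2.20, adjusted p = 0.049), and without IMQ_Troglitazone replicate 2 the troglitazone value passed it (-2.06, adjusted p = 0.049).

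The share of each chemokine in their sum varied between groups. In TPM, the length-scaled share of a gene's transcripts, the 4 chemokines summed to 19.9 to 40.9 in IMQ_GW3965, 10.2 to 62.0 in IMQ_Troglitazone, 124 to 183 in IMQ_Veh and 1.82 to 5.83 in UTX_Veh. Cxcl1 made up 49.7%, 62.6% and 49.0% of that sum in IMQ_GW3965, 51.0%, 82.3% and 87.6% in IMQ_Troglitazone, 21.3%, 39.0% and 36.3% in IMQ_Veh, and 72.0%, 75.1% and 95.6% in UTX_Veh. Its share in every drug library was above that in every IMQ_Veh library. The ratio of Cxcl2 to Cxcl1 counts, which does not depend on how a library was scaled, was 0.743, 0.386 and 0.845 in IMQ_GW3965, 0.634, 0.164 and 0.111 in IMQ_Troglitazone, 2.71, 1.03 and 1.11 in IMQ_Veh, and 0.339, 0.316 and 0.0476 in UTX_Veh. Cxcl2 counts exceeded Cxcl1 counts in the 3 IMQ_Veh libraries and in no other library. These shares and ratios were chosen after the values had been seen and are given as a description, and an exact two-sided permutation test of 3 against 3 libraries cannot give a p below 0.1.

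**Figure D2:**
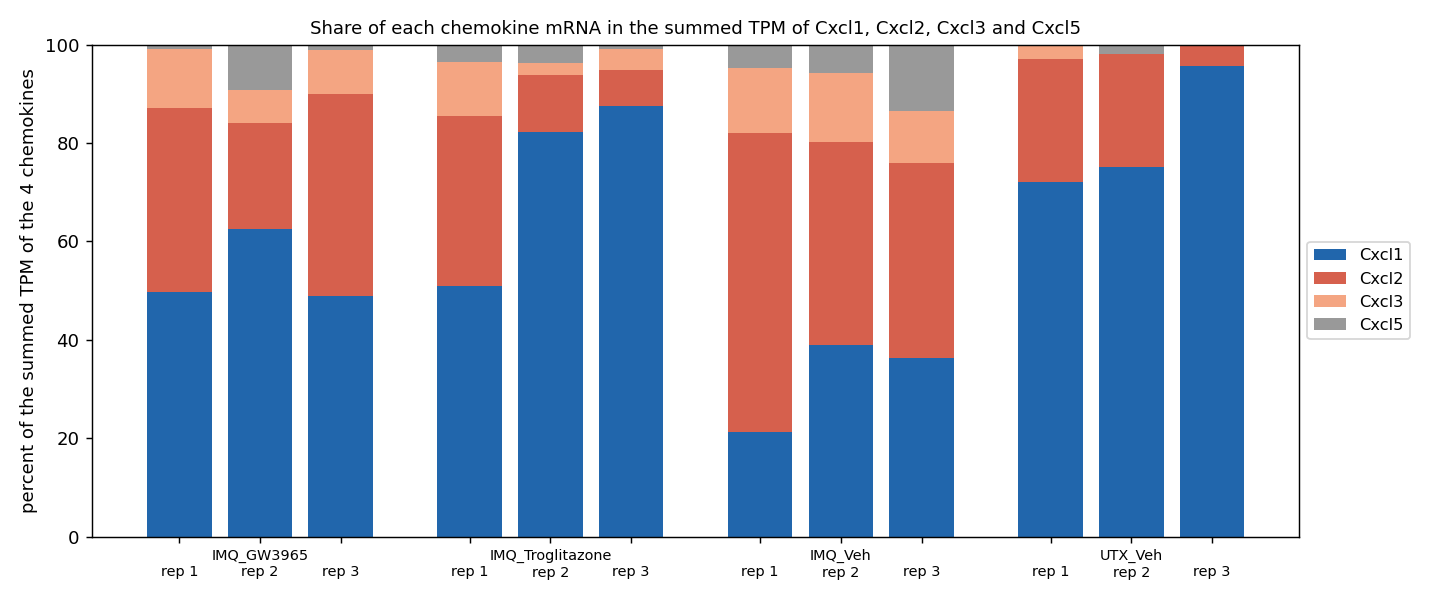
Share of Cxcl1, Cxcl2, Cxcl3 and Cxcl5 in their summed TPM in each of the 12 libraries, as stacked bars from 0 to 100%, by group. Cxcl1 takes 21.3% to 39.0% in IMQ_Veh and at least 49.0% in every other library.

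Cxcr2, the receptor of these chemokines (ENSMUSG00000026180, chr1:74153989-74161246, forward strand), passed the test in IMQ_Veh against UTX_Veh and, with all libraries in the fit, with neither drug. It had 18.1, 33.7 and 39.1 CPM in IMQ_GW3965, 37.2, 35.2 and 23.6 CPM in IMQ_Troglitazone, 46.1, 53.6 and 41.9 CPM in IMQ_Veh, against 4.28, 4.18 and 5.55 CPM in UTX_Veh. Every drug library was below every IMQ_Veh library and above every UTX_Veh library. Cxcr2 was higher in IMQ_Veh than in UTX_Veh by 3.34 ± 0.28 (log2, adjusted p = 3.44e-06). It was at 64.2% of the IMQ_Veh mean in IMQ_GW3965 (-0.65 ± 0.25, adjusted p = 0.132) and at 67.8% in IMQ_Troglitazone (-0.56 ± 0.25, adjusted p = 0.165). With IMQ_Veh and IMQ_GW3965 reduced to replicates 1 and 2, Cxcr2 was called lower with GW3965 (-0.94, adjusted p = 0.0423). The difference between Cxcr2 and its ligands was not tested.

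Csf3 (ENSMUSG00000038067, chr11:98701263-98703629, forward strand) was the least abundant of the 10 genes in IMQ_Veh by TPM. It had 0.181, 0.884 and 0.0676 CPM in IMQ_GW3965, 0.381, 0.436 and 0 CPM in IMQ_Troglitazone, 1.40, 0.965 and 5.98 CPM in IMQ_Veh, and no read in the 3 libraries of UTX_Veh. The drug libraries lay below IMQ_Veh, in which replicate 3 stood well above the other libraries. Against a floor of 3 counts over UTX_Veh, Csf3 was at least 51.8-fold higher in IMQ_Veh, and at least 22.8-fold higher without IMQ_Veh replicate 3 or 33.9-fold without UTX_Veh replicate 1. The log2 fold change was -2.81 ± 0.99 for GW3965 (adjusted p = 0.112) and -3.35 ± 1.02 for troglitazone (adjusted p = 0.0674), neither of which passed the test. Without IMQ_Veh replicate 3 these values were -1.58 and -2.12, and they were -4.32 for GW3965 without IMQ_GW3965 replicate 2 and -2.74 for troglitazone without IMQ_Troglitazone replicate 3. The troglitazone value passed it in DESeq2 (adjusted p = 0.0248) and with no filter on low counts (adjusted p = 0.0265).

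Csf3r, the receptor for the Csf3 product (ENSMUSG00000028859, chr4:126024550-126044440, forward strand), fell under both drugs. It had 4.79, 10.7 and 8.11 CPM in IMQ_GW3965, 16.1, 12.4 and 6.61 CPM in IMQ_Troglitazone, 39.5, 31.7 and 38.5 CPM in IMQ_Veh, against 1.49, 1.04 and 1.58 CPM in UTX_Veh. The drug groups overlapped each other and lay between IMQ_Veh and UTX_Veh without touching either. Csf3r was higher in IMQ_Veh than in UTX_Veh by 4.73 ± 0.38 (log2, adjusted p = 2.51e-06). It was at 21.5% of the IMQ_Veh mean in IMQ_GW3965 (-2.22 ± 0.32, adjusted p = 0.00644) and at 32.0% in IMQ_Troglitazone (-1.64 ± 0.31, adjusted p = 0.0133). In GW3965 it passed the test under every alternative run, with a highest adjusted p of 0.037, and with troglitazone it was lost without IMQ_Veh replicate 1 (adjusted p = 0.0575) and with only the 2 groups fitted (0.0937).

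Trem1 (ENSMUSG00000042265, chr17:48232768-48246924, forward strand) also fell under both drugs. It had 2.26, 2.44 and 3.78 CPM in IMQ_GW3965, 2.45, 2.52 and 0.739 CPM in IMQ_Troglitazone, 9.18, 12.6 and 10.9 CPM in IMQ_Veh, against 0.118, 0 and 0.0854 CPM in UTX_Veh. Of the 5 genes that fell, it was the most even within IMQ_GW3965. Trem1 was higher in IMQ_Veh than in UTX_Veh by 7.20 ± 0.61 (log2, adjusted p = 3.44e-06), and by 7.82 without UTX_Veh replicate 1. The log2 fold change was -1.96 ± 0.40 for GW3965 (adjusted p = 0.0212) and -2.52 ± 0.40 for troglitazone (adjusted p = 0.00948). The GW3965 call was lost without IMQ_Veh replicate 1 (adjusted p = 0.0558) or without IMQ_GW3965 replicate 1 (0.102) or 2 (0.0648). The troglitazone call was lost with only the 2 groups fitted (adjusted p = 0.0934).

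The formyl peptide receptors were higher in IMQ_Veh than in UTX_Veh and passed the test with neither drug. Fpr1 (ENSMUSG00000045551, chr17:17876471-17883940, reverse strand) and Fpr2 (ENSMUSG00000052270, chr17:17887824-17893952, forward strand) lie next to each other and are read in opposite directions, with starts 3884 bases apart. Fpr1 had 0.859, 1.77 and 3.24 CPM in IMQ_GW3965, 2.41, 1.55 and 0.534 CPM in IMQ_Troglitazone, 3.94, 3.34 and 2.89 CPM in IMQ_Veh, and no read in UTX_Veh. Fpr2 had 3.30, 4.26 and 7.10 CPM in IMQ_GW3965, 4.44, 2.76 and 1.44 CPM in IMQ_Troglitazone, 5.50, 3.70 and 4.62 CPM in IMQ_Veh, against 0, 0.0418 and 0.0854 CPM in UTX_Veh. For Fpr2 both drug groups overlapped IMQ_Veh, and IMQ_GW3965 replicate 3 had the highest value of all 12 libraries.

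Fpr1 was at least 67.2-fold higher in IMQ_Veh than the floor of UTX_Veh, and at least 44.0-fold without UTX_Veh replicate 1. The ratio of Fpr2 was 89.9 with a counting interval of 30.4 to 438 on 3 UTX_Veh reads, 58.8 without UTX_Veh replicate 1 and 183 without replicate 3. The log2 fold change of Fpr1 was -0.82 ± 0.53 for GW3965 (adjusted p = 0.364) and -1.18 ± 0.53 for troglitazone (adjusted p = 0.182). That of Fpr2 was 0.08 ± 0.40 (adjusted p = 0.933) and -0.67 ± 0.40 (adjusted p = 0.295). Fpr2 exceeded Fpr1 by more in the drug libraries than in IMQ_Veh, with count ratios of 3.84, 2.41 and 2.19 in IMQ_GW3965 and 1.84, 1.78 and 2.69 in IMQ_Troglitazone, against 1.39, 1.11 and 1.60 in IMQ_Veh, a comparison also chosen after the values had been seen.

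**Figure D3:**
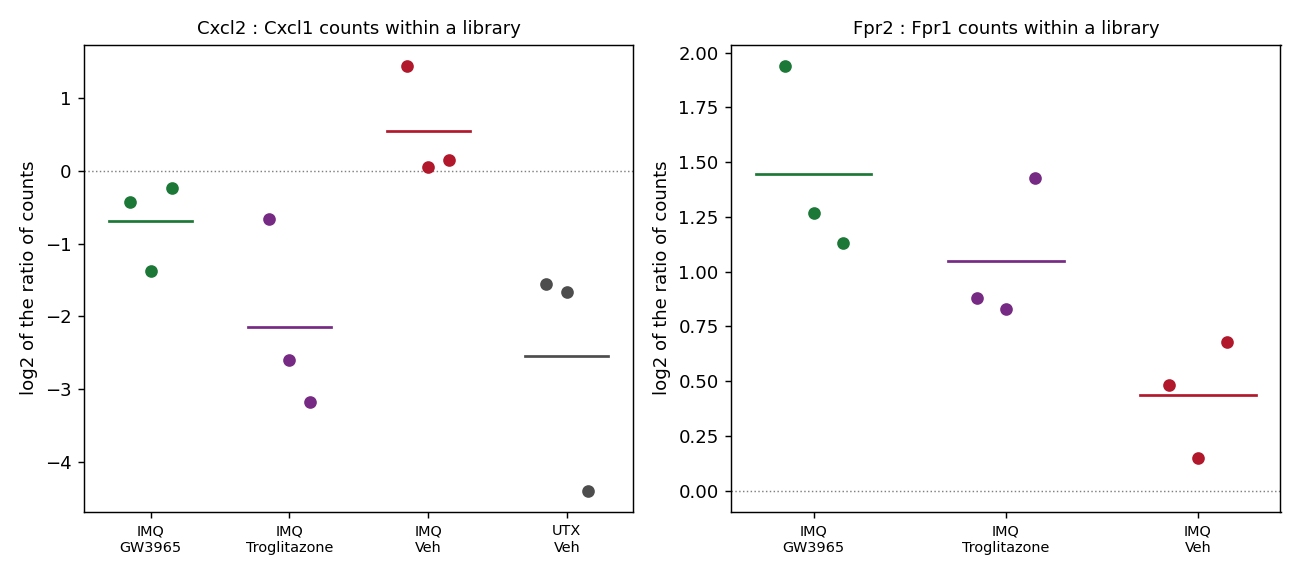
Ratio of Cxcl2 to Cxcl1 counts and of Fpr2 to Fpr1 counts within each library, as log2 of the ratio, with 1 point per library and a bar at the group mean of the log2 values. UTX_Veh is not shown for Fpr2 to Fpr1, since it had no Fpr1 read. In linear terms, every Cxcl2 to Cxcl1 point of the drug groups lies below the IMQ_Veh points, whose lowest is 1.03, and every Fpr2 to Fpr1 point of the drug groups lies above them, whose highest is 1.60.

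How far the fall under the drugs rested on single libraries differed by comparison. For GW3965 the 5 calls became 1 without IMQ_Veh replicate 1, where 0.291% of all genes were called lower, and 1 without IMQ_GW3965 replicate 1, where 0.16% were. They became 2 without IMQ_GW3965 replicate 2, where 0.94% of all genes were called lower, and 3 when only the 2 groups were fitted, where 0.242% were. For troglitazone they became 2 without IMQ_Veh replicate 1, where 0.354% of all genes were called lower. When only the 2 groups were fitted, edgeR called 0 of the 16350 genes tested in either direction for troglitazone, the 10 genes included. The loss of calls was therefore shared by the whole table, in which 2.88% and 4.65% were called lower with all libraries. The direction of the 5 genes was kept in every alternative. Within the lane fields of the file names, which the labels do not explain and which hold 1 or 2 libraries of a group each, 9 and 10 of the 10 genes were lower with GW3965, the exception being Fpr2 in L001. With troglitazone 10 and 9 were lower, the exception being Cxcl1 in L009 at 0.03 on the log2 scale. The share of all genes lower within a lane field is not given here, so these counts describe direction only, and the part of the lane was not tested by them. With the lane field as a covariate, Cxcl2 with GW3965 was the call that was lost, as given above, and 1.32% of all genes were called lower with GW3965.

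**Figure D4:**
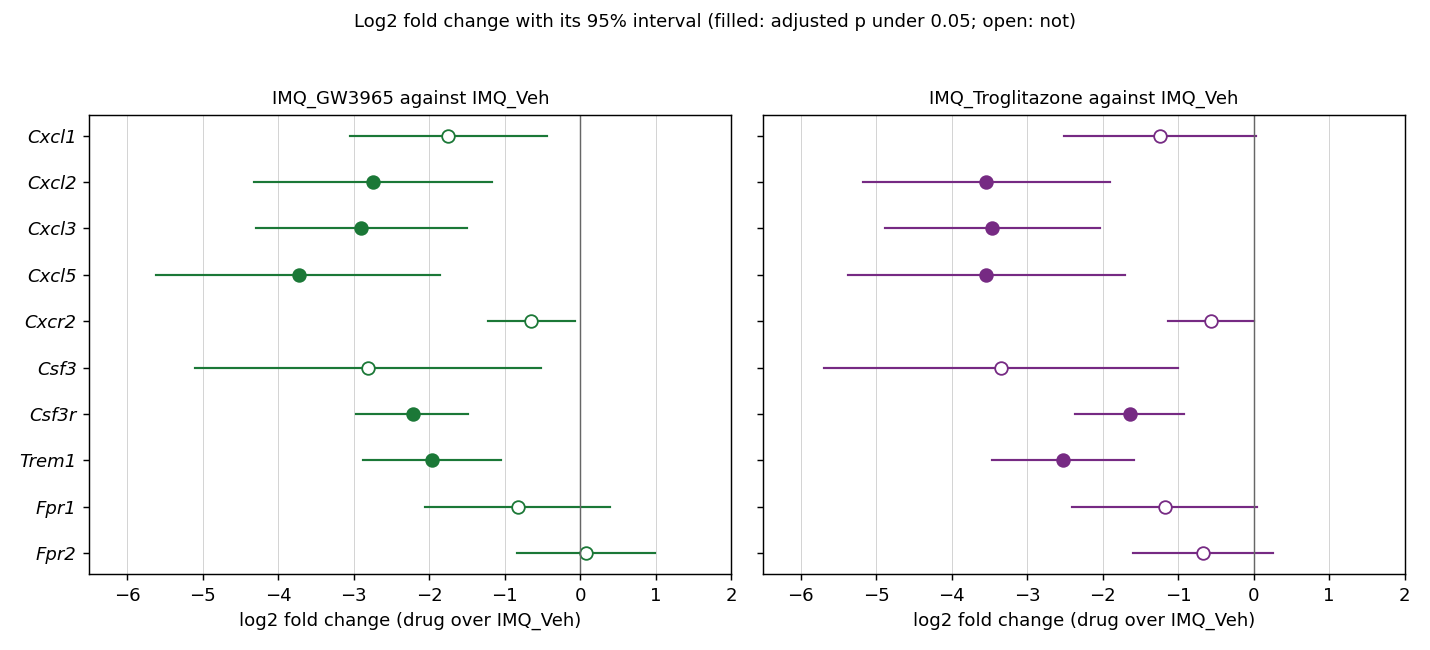
Log2 fold change of each of the 10 genes for IMQ_GW3965 and for IMQ_Troglitazone, each against IMQ_Veh, with 95% intervals from the edgeR fit and filled symbols where the adjusted p is under 0.05. Cxcl2, Cxcl3, Cxcl5, Csf3r and Trem1 are filled for both drugs, and Fpr2 with GW3965 lies at 0.08. The intervals use a t quantile at 8 degrees of freedom and can differ from the test. With troglitazone, the intervals of Cxcl1 (-2.51 to 0.03) and Cxcr2 (-1.14 to 0.01) cross 0, though edgeR's unadjusted p was under 0.05 for both.

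Between IMQ_GW3965 and IMQ_Troglitazone none of the 10 genes passed edgeR's test, where 1.86% of all genes did in either direction. None had an unadjusted p under 0.05, and DESeq2 and limma-voom called none either. The compounds are not structural analogs and their doses differed, so the intervals describe these treatments only. The narrowest 95% interval of the log2 difference was that of Cxcr2, -0.66 to 0.50 around -0.08, and the widest was that of Csf3, -2.25 to 3.32 around 0.53. The interval of Cxcl1 ran from -1.80 to 0.79 around -0.51, and that of Cxcl2 from -0.82 to 2.41 around 0.80. Cxcl3 lay at 0.56 (-0.93 to 2.05) and Cxcl5 at -0.19 (-2.22 to 1.84). Csf3r lay at -0.58 (-1.32 to 0.16), Trem1 at 0.56 (-0.39 to 1.52), Fpr1 at 0.35 (-0.92 to 1.62) and Fpr2 at 0.75 (-0.18 to 1.68). These widths leave room for differences of more than 1 log2 unit in at least 1 direction for every gene except Cxcr2.

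Most of the 10 genes stayed above the level of UTX_Veh with either drug. With troglitazone, Cxcl2 and Csf3 overlapped UTX_Veh through replicate 3. In IMQ_GW3965, 9 of the 10 genes were higher than in UTX_Veh, where 28.7% of all genes were called higher, and in IMQ_Troglitazone 9 were, where 26.5% of all genes were. The gene not called was Csf3 in both (adjusted p = 0.0577 with GW3965 and 0.0964 with troglitazone, and 0.00197 and 0.00583 in DESeq2). Cxcr2 had a log2 fold change over UTX_Veh of 2.69 ± 0.28 in IMQ_GW3965 and 2.77 ± 0.28 in IMQ_Troglitazone. Csf3r was higher than UTX_Veh by 2.50 ± 0.37 in IMQ_GW3965 and by 3.09 ± 0.37 in IMQ_Troglitazone, and Trem1 by 5.24 ± 0.65 and 4.67 ± 0.66 (5.87 and 5.30 without UTX_Veh replicate 1).

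The 4 chemokines were called higher than UTX_Veh with both drugs by edgeR. In limma-voom Cxcl5 was not called with either drug (adjusted p = 0.0716 with GW3965 and 0.0747 with troglitazone), nor was Cxcl2 with troglitazone (0.0661). Cxcl1 was higher by 3.03 ± 0.67 in IMQ_GW3965 and 3.53 ± 0.67 in IMQ_Troglitazone, by 3.66 and 4.16 without UTX_Veh replicate 1, and by 2.71 without IMQ_Troglitazone replicate 2. Cxcl2 was higher by 4.37 ± 0.94 and 3.57 ± 0.96, by 5.60 and 4.81 without UTX_Veh replicate 1, and by 3.53 without IMQ_GW3965 replicate 3. The Cxcl2 call for troglitazone was lost without IMQ_Troglitazone replicate 1 (2.85, adjusted p = 0.0522). For Cxcl3 the ratio to UTX_Veh was 51.7 with GW3965 (counting interval 13.9 to 432) and 39.6 with troglitazone (10.6 to 332), with bounds of at least 22.5-fold and 17.3-fold without UTX_Veh replicate 1 and a ratio of 18.2 without IMQ_Troglitazone replicate 1. For Cxcl5 it was 57.3 (9.87 to 2300) and 70.1 (12.2 to 2810), which the single UTX_Veh read leaves imprecise.

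The Cxcl5 ratio with GW3965 was 37.5 without UTX_Veh replicate 1 and 21.6 without IMQ_GW3965 replicate 2, and its bound was at least 12.8-fold without UTX_Veh replicate 2. Its call was lost without UTX_Veh replicate 1 (adjusted p = 0.0533) or 3 (0.0512) or IMQ_GW3965 replicate 2 (0.101). With troglitazone the Cxcl5 ratio was 45.9 without UTX_Veh replicate 1, 42.8 without IMQ_Troglitazone replicate 2, where the call was lost (adjusted p = 0.0505), and 106 without IMQ_Troglitazone replicate 3, and its bound was at least 15.6-fold without UTX_Veh replicate 2. The formyl peptide receptors were also called higher. Fpr1 was at least 34.4-fold higher in IMQ_GW3965 and at least 31.0-fold higher in IMQ_Troglitazone than the floor of UTX_Veh, or 22.5-fold and 20.3-fold without UTX_Veh replicate 1. The Fpr2 ratio was 88.7 (30.0 to 433) and 59.8 (20.2 to 293), or 58.0 and 39.1 without UTX_Veh replicate 1 and 180 and 122 without replicate 3.

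The order of the 10 genes by mean TPM differed between groups. In IMQ_GW3965, Cxcl1 (14.2 ± 5.20), Cxcr2 (12.2 ± 3.40), Cxcl2 (9.54 ± 6.47) and Fpr2 (6.90 ± 1.60) led and overlapped one another, and Fpr2 stood apart from Csf3r (3.90 ± 1.34), the next. In IMQ_Troglitazone, Cxcl1 (26.6 ± 21.9), Cxcr2 (16.3 ± 3.62) and Cxcl2 (7.10 ± 6.35) led, each overlapping the next. In IMQ_Veh, Cxcl2 (69.3 ± 10.7) and Cxcl1 (50.0 ± 22.5) overlapped and stood apart from Cxcr2 (20.1 ± 2.92), Cxcl3 (19.2 ± 5.55), Csf3r (18.1 ± 2.87) and Cxcl5 (11.9 ± 6.79). In UTX_Veh, Cxcr2 (2.90 ± 0.52) and Cxcl1 (2.49 ± 1.48) led, followed by Csf3r (1.27 ± 0.543) and Cxcl2 (0.67 ± 0.711). All are means ± SD over 3 libraries.

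Libraries within a drug group did not vary gene by gene alone. IMQ_Troglitazone replicate 3 had the lowest value of its group for all 10 genes, and in IMQ_GW3965 replicate 1 had the lowest value for 7 genes and replicate 3 the highest for 7. The same counts over all genes are not given here, so a trait of these genes and one of the whole library cannot be told apart. A list of 16 neutrophil marker genes had a summed level of 322, 1380 and 2030 CPM in IMQ_GW3965, 1960, 1580 and 424 CPM in IMQ_Troglitazone, 9510, 10100 and 5720 CPM in IMQ_Veh, against 96.3, 78.2 and 83.4 CPM in UTX_Veh. The lowest library of each drug group by that sum was thus also the one lowest for most of the 10 genes, and the part of neutrophil number in the results was not tested. In the imiquimod groups the sum is led by S100a8 and S100a9, alarmin subunits that inflamed keratinocytes also make. In UTX_Veh it is led by Il1r2 (65.5, 63.6 and 62.7 CPM), which was lower in IMQ_Veh (34.9, 32.4 and 42.1 CPM). Of the 10 markers tested, 8 were called higher in IMQ_Veh than in UTX_Veh and 1 lower, where 33.0% and 28.9% of all genes were. Ly6g, the defining surface marker of mouse neutrophils, had 0, 0 and 5 counts in IMQ_GW3965, 1, 1 and 0 in IMQ_Troglitazone, 2, 6 and 6 in IMQ_Veh, and 1, 0 and 0 in UTX_Veh.

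Of the 16 neutrophil markers 10 were tested and 6, Ly6g among them, were below the filter. With GW3965, 3 of the 10 fell relative to IMQ_Veh and 1 rose, where 2.88% of all genes were called lower and 3.71% higher. With troglitazone 3 fell and none rose, where 4.65% were called lower and 4.69% higher. S100a8 fell in both (log2 fold change -2.81, adjusted p = 0.0472, and -2.87, adjusted p = 0.0381), as did Acod1, which makes itaconate (-3.53, adjusted p = 0.0244, and -4.21, adjusted p = 0.0127), and Mrgpra2b (-2.46, adjusted p = 0.028, and -2.62, adjusted p = 0.0177). Il1r2, the decoy receptor for interleukin-1, rose with GW3965 (0.78, adjusted p = 0.036). A list of macrophage and monocyte markers summed to 964 to 1370 CPM in IMQ_GW3965, 1170 to 1420 CPM in IMQ_Troglitazone, 661 to 1550 CPM in IMQ_Veh and 358 to 518 CPM in UTX_Veh. Of its 13 genes 2 fell with each drug, beside the same shares of all genes called lower. These were Ccr2, the receptor that recruits monocytes (-2.10, adjusted p = 0.006, and -1.58, adjusted p = 0.0126), and Cd14, the co-receptor for endotoxin (-1.51, adjusted p = 0.00854, and -2.01, adjusted p = 0.00562).

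Markers of other skin cells were also counted. Keratinocyte markers, by which the tissue was checked, summed to 58200 to 76200 CPM in IMQ_GW3965, 58800 to 68300 CPM in IMQ_Troglitazone, 54200 to 76300 CPM in IMQ_Veh and 23400 to 27000 CPM in UTX_Veh. Of the 7 keratinocyte markers, Krt10 rose with both drugs (0.59, adjusted p = 0.0268, and 0.57, adjusted p = 0.0248) and Krt14 fell with troglitazone (-0.79, adjusted p = 0.0286). With GW3965, where 3.71% of all genes were called higher, 1 of 7 mast cell, 1 of 6 dendritic and Langerhans cell and 2 of 8 skeletal muscle markers rose. With troglitazone, where 4.69% were, 2 of 7 mast cell markers rose. With that drug 4 of 5 red blood cell markers fell, where 4.65% of all genes were called lower. No tested marker of T cells, fibroblasts or endothelium, 6 in each list, passed the test with either drug. Of the 6 eosinophil and basophil markers only 1 was tested, and it passed with neither drug. The part of these cells in the results was not tested.

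Signals known to induce these chemokines, a list of 19 genes of the interleukin-17, interleukin-1, interleukin-36 and tumour necrosis factor pathways, were all higher in IMQ_Veh than in UTX_Veh, where 33.0% of all genes were called higher. With each drug 3 of the 19 fell relative to IMQ_Veh and none rose, where 2.88% of all genes were called lower with GW3965 and 4.65% with troglitazone. Il1b, which encodes interleukin-1β, fell by 2.90 ± 0.65 on the log2 scale with GW3965 (adjusted p = 0.0273) and by 3.46 ± 0.66 with troglitazone (adjusted p = 0.0136). Il17a, which encodes interleukin-17A, fell by 3.54 ± 0.91 with GW3965 (adjusted p = 0.0499) and by 3.08 ± 0.84 with troglitazone (adjusted p = 0.0494), both near the threshold. The others were receptor subunits with small changes, Il17ra with GW3965 (-0.69, adjusted p = 0.00644) and Il17rc with troglitazone (-0.31, adjusted p = 0.0482).

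Other activating receptors of myeloid cells near Trem1 in function followed it in part. Of 7 tested genes of the TREM and C-type lectin list, 6 were higher in IMQ_Veh than in UTX_Veh, 3 fell with GW3965 and 2 with troglitazone. Among all genes, 33.0% were called higher in IMQ_Veh, and 2.88% and 4.65% were called lower with GW3965 and troglitazone. Clec4e, the Mincle receptor for glycolipids, changed by -2.42 with GW3965 (adjusted p = 0.0216) and by -1.91 with troglitazone (adjusted p = 0.0327), and its partner Clec4d by -1.46 (adjusted p = 0.006) and -1.61 (adjusted p = 0.00632). Trem3 fell with GW3965 (-2.89, adjusted p = 0.0247). Of 9 tested genes of other formyl peptide and chemoattractant receptors and lipid mediator enzymes, 1 fell with GW3965 and 2 fell and 1 rose with troglitazone, where 4.69% of all genes were called higher. These were Ptafr, the receptor for platelet-activating factor (-1.02, adjusted p = 0.0278), with GW3965, and with troglitazone Ltb4r1, the leukotriene B4 receptor (-0.87), Anxa1 (-0.54) and the 5-lipoxygenase gene Alox5 (0.73).

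Of 13 tested chemokines and receptors of the CXC family outside the 10 genes, 1 rose and 2 fell with GW3965, and 1 rose and 3 fell with troglitazone. Among all genes, 3.71% were called higher and 2.88% lower with GW3965, and 4.69% and 4.65% with troglitazone. Cxcl13, a chemokine for B cells, rose above IMQ_Veh in both drug groups (2.48, adjusted p = 0.00242, and 2.12, adjusted p = 0.00632), against the direction of the neutrophil chemokines, and was higher in IMQ_Veh than in UTX_Veh by 5.66. Cxcr4, which retains neutrophils in bone marrow, fell with both (-1.09 and -1.27), as did Ppbp, a platelet chemokine (-2.14 and -1.74), and Cxcr6 fell with troglitazone (-0.98). Of 6 tested colony-stimulating factors and receptors other than Csf3 and Csf3r, 2 fell with GW3965, Csf2rb (-0.98, adjusted p = 0.0308) and Csf2ra (-0.88, adjusted p = 0.0327), and none changed with troglitazone. Among 9 negative regulators, Nfkbia, the NF-kappaB inhibitor induced by NF-kappaB itself, fell with both (-0.64, adjusted p = 0.0479, and -0.68, adjusted p = 0.0346), and Socs3 (-1.24) and Zfp36 (-0.53), which limits chemokine mRNA stability, fell with troglitazone.

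The genes most like each member over the 12 libraries were found by the root mean square (RMS) difference of centred log2(CPM + 0.5) values, in which a smaller value is a closer profile. Cxcl2 was nearest to Il1b (0.41), Cxcl3 to Acod1 (0.32), Cxcl1 to Bcl3 (0.38) and Cxcl5 to Cd300lf (0.61). Cxcr2 was nearest to Smox (0.16), Csf3 to Il24 (0.39), Csf3r to Ccr1 (0.28), Trem1 to Clec4e (0.39), Fpr1 to Fam162a (0.28) and Fpr2 to Fcgr4 (0.31). Cxcl5 thus had the least close neighbour of the 10. The mean profile of the 10 genes was nearest to those of Elf3 (0.29), Clec4e (0.30), Ccr1 (0.31), Clec4d (0.33) and Fam83a (0.35). Among the 10 genes themselves the nearest pair was Cxcr2 and Fpr1 (0.36) and the farthest was Cxcl2 and Csf3 (1.64), with Cxcl2 and Cxcl3 at 0.61 and Cxcl1 and Cxcl2 at 1.04. These distances describe the same 12 libraries, in which depth and group are shared by all genes. The added 0.5 CPM flattens the profiles of genes with few reads, Csf3 among them, so a distance also depends on how abundant a gene is.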

How the data were processed

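The authors deposited 1 gene table per library with expected counts (RSEM estimates of the reads of a gene, not scaled for depth) and TPM, which the authors' RSEM run scales by gene length and library. Per the submitters' processing notes, the tools were RSEM 1.3.3 and STAR 2.7.3a beside Trim Galore and FastQC, on GRCm38 (mm10). The sources used here give neither annotation release nor strand setting. Per the labels, RNA came from a mirVana kit and libraries from a TruSeq stranded mRNA kit. Symbols and positions were taken from GENCODE M21, which matched 52083 identifiers, and 3333 had none.

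Expected counts were rounded and tested in R 4.3.3 with edgeR 4.0.16 (filterByExpr by group, TMM, glmQLFit and glmQLFTest) in 1 fit of 12 libraries with 8 residual degrees of freedom. P-values were adjusted over 17130 genes by the Benjamini-Hochberg method, and an adjusted p under 0.05 was called. The common dispersion was 0.0306. TPM served for levels between genes only. Floors, and the counting intervals of ratios at 95%, come from summed counts and library sizes. The intervals cover counting error alone and leave out scatter among libraries. They can be too narrow for counting error too, because reads that carry no molecular identifiers can be copies of one molecule. The 95% intervals of log2 fold changes come from the edgeR fit and include scatter among libraries. Each is the value ± its SE times a t quantile at 8 degrees of freedom. All pairs of libraries within groups differed beyond sampling noise (lowest chi-square per degree of freedom 8.34). The code was tested on simulated data. The members and the 18 lists of 175 symbols were chosen with earlier results of these data known. Named were all members, up to 3 called genes per list and comparison with the smallest adjusted p, and the nearest gene by profile. The result of 1 of the lists is not reported here. Alternatives were limma-voom (limma 3.58.1), DESeq2 1.42.0, upper-quartile or RLE scaling, other filters, only the 2 groups, the replicate number, the lane field, removal of ENSMUSG00000119584 and mitochondrial genes, and leaving out each library. Added after the data were seen was a fit with IMQ_Veh and IMQ_GW3965 reduced to replicates 1 and 2.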

Additional observations from a re-analysis of the deposited data

How the results depend on the processing

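All 10 genes were called higher in IMQ_Veh than in UTX_Veh whichever library was left out, and 9 or 10 in the other alternatives. With a library left out, 4827 to 5834 genes of the whole table were called higher in that comparison. The count for IMQ_GW3965 against IMQ_Veh ranged from 1 to 6 with a library left out, where 0.16% to 8.49% of all genes were called lower. It was 3 with only the 2 groups fitted, where 0.242% of all genes were. The count for IMQ_Troglitazone against IMQ_Veh ranged from 2 to 6 with a library left out, where 0.354% to 11.2% of all genes were called lower. It was 0 with only the 2 groups fitted, a fit that called no gene of the whole table and leaves fewer residual degrees of freedom. Between the drugs it was 0 throughout. Against UTX_Veh it was 8 to 10 for each drug with a library left out, 8 with GW3965 and 7 with troglitazone in limma-voom, and again 8 and 7 with only the 2 groups fitted, where the filter on low counts removed the genes not called. With a library left out, 3986 to 5231 genes of the whole table were called higher than UTX_Veh with GW3965 and 3662 to 4952 with troglitazone. In limma-voom these whole-table counts were 4834 and 4468, and with only the 2 groups fitted they were 5019 and 4567. Against IMQ_Veh the GW3965 count was 7 with IMQ_Veh and IMQ_GW3965 reduced to replicates 1 and 2, without IMQ_Veh replicate 3 and IMQ_GW3965 replicate 3. In that fit 6.12% of all genes were called lower, beside 2.88% with all libraries.

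Only values that had not passed the test changed sign. For Fpr2 in IMQ_GW3965 against IMQ_Veh the log2 fold change was -0.002 in limma-voom, -0.27 with the 2 groups reduced and -0.28 to 0.30 with a library left out. Between the drugs, that of Cxcl5 was 0.05 in limma-voom, and those of Cxcl2 and Fpr1 were -0.02 and -0.21 with the 2 groups reduced. With a library left out the difference between the drugs ranged from -0.98 to 0.32 for Cxcl1, -0.02 to 1.53 for Cxcl2, -1.55 to 0.54 for Cxcl5, -0.32 to 0.19 for Cxcr2, -0.98 to 1.02 for Csf3 and -0.21 to 0.89 for Fpr1. Single values of the opposite sign were 0.35 for Cxcl5, 0.04 for Cxcr2, -0.07 for Csf3 and -0.06 for Fpr1 between the drugs, and -0.06 for Fpr2. The cause was not tested.

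With the replicate number as a block the counts called were 10, 5, 5 and 0, and 9 and 9 for the drugs against UTX_Veh, as without it. In that fit 3.47% of all genes were called lower with GW3965 than in IMQ_Veh, and 4.63% with troglitazone. Against UTX_Veh it called 5639 genes of the whole table higher in IMQ_Veh, 4951 with GW3965 and 4586 with troglitazone. Deviations of same-numbered libraries correlated at -0.221 to 0.312, so the numbers were not taken as pairs. Upper-quartile scaling moved the median log2 fold change of all genes in IMQ_Veh against UTX_Veh to -0.114. Genes with few reads, Csf3 above all, limit what the depth can show.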
